A study of Oryza sativa with 32 samples.

Results

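The rice annotation deposited with this root RNA-seq series was searched for loci of a pair of cell wall families, the expansins and the family 16 glycosyl hydrolases. A locus was a member when its representative gene model was not marked as a transposable element (TE) and its description held the word expansin or the words glycosyl hydrolases family 16. Of the 55986 loci of the annotation, 93 were members, 63 of them expansins and 30 family 16 glycosyl hydrolases, and 0 belonged to both families. The other 38956 loci not marked as TEs, called other non-TE loci from here on, were the background for every count. Among the expansins, 56 loci were described as expansin precursor and 7 as beta-expansin precursor.

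Expansins are secreted proteins that loosen the plant cell wall at acid pH without cutting its polymers, and they are known for their part in the elongation of root and shoot cells. They fall mainly into alpha-expansins and beta-expansins, and the beta class, which is large in grasses, includes the main group of grass pollen allergens. The plant enzymes of glycosyl hydrolase family 16 are mostly xyloglucan endotransglucosylases/hydrolases, which cut xyloglucan chains and either rejoin them to another chain or release them. Both families act on walls while cells grow, the expansins on contacts between polymers and the enzymes on the polymer chain itself.

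The series asked how swapping the chromosome 12 region that holds *ART1*, a zinc finger transcription factor gene of aluminum (Al) resistance, changes the response of roots to Al. The 32 libraries came from roots of 4 genotypes with 4 replicates for each genotype and treatment. AZU[IR64121], Azucena carrying the IR64 form of the region, was sampled after 4 h of Al at an Al3+ activity of 80 µM and in control solution, as was its recurrent parent Azucena, a tropical japonica cultivar. IR64[AZU12.1], IR64 carrying the Azucena form, was sampled with Al and in control solution, as was its recurrent parent IR64, an indica cultivar; all seedlings had grown for 5 days. The file used here is the MSUv.7 annotation to which the reads of all 8 groups were aligned. It gives the ends, strand and description of 66338 gene models, and 0 of its columns hold a value of a single library, so no level and no response to Al is given for any member. The annotation was built on the japonica cultivar Nipponbare, and whether Azucena, IR64 and the near-isogenic lines carry the same copies was not tested. All positions below are MSUv.7 positions in bp. The counts are of a complete list, so they have no replicate error, and no test was run between the families and other loci.

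Expansins lay on 11 of the 12 chromosomes and family 16 glycosyl hydrolases on 9. Chromosome 3 held 18 expansins, chromosome 2 held 10 and chromosome 10 held 9. These 3 chromosomes together carried 37 expansins (58.7%), against 27.6% of the other non-TE loci. They were picked for having the most expansins, so this comparison is a description only. Chromosome 3 alone had 28.6% of the expansins and 11.2% of the other non-TE loci. Per 1000 non-TE loci, the density of expansins was 4.10 on chromosome 3, 3.93 on chromosome 10 and 2.42 on chromosome 2, while the density over all loci was 1.61. On the remaining chromosomes with expansins, the density was between 0.410 on chromosome 12 and 1.55 on chromosome 6. Chromosome 11 held 0 expansins. Chromosome 1, which had 13.0% of the other non-TE loci, held 4, or 0.789 per 1000.

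For the family 16 glycosyl hydrolases, chromosomes 2, 4 and 6 held 5 each and chromosomes 3 and 8 held 4 each. These 5 chromosomes carried 23 of the 30 loci (76.7%), against 45.9% of the other non-TE loci. They too were picked for their counts, so this comparison is a description only. The density over all loci was 0.768 per 1000 non-TE loci, with 1.55 on chromosome 6, 1.46 on chromosome 4, 1.45 on chromosome 8, 1.31 on chromosome 10 and 1.21 on chromosome 2. Chromosomes 1, 5 and 12 held 0. The chromosome with the most expansins, chromosome 3, had 0.912 family 16 loci per 1000. Counted by locus, both families were thus above their own density over all loci on chromosomes 2, 3 and 10, and family 16 alone was so on chromosomes 4, 6 and 8. Chromosomes 4, 6 and 7 held equal numbers of both (5, 5 and 2 of each).

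**Figure D1:**
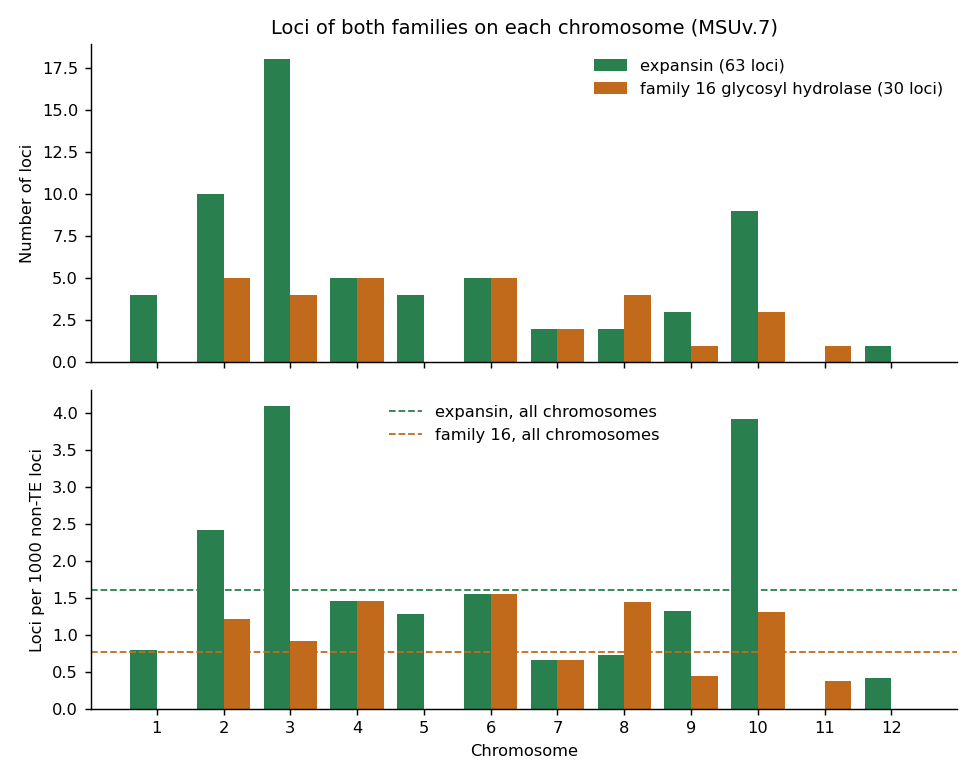
Number of loci of each family on each of the 12 chromosomes (upper panel) and number per 1000 non-TE loci of that chromosome (lower panel); dashed lines give the density over all loci, 1.61 for expansins and 0.768 for family 16. Expansins stood above their line on chromosomes 2, 3 and 10, and family 16 loci on chromosomes 2, 3, 4, 6, 8 and 10.

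Many members lay close to another member of their family. Members of the same family at most 5 loci apart in the order of all loci were linked, and linked members were counted as a tandem run. Of the 63 expansins, 35 (55.6%) lay in 11 runs and 28 stood alone. Of the 30 family 16 glycosyl hydrolases, 12 (40.0%) lay in 4 runs and 18 stood alone. As background, other non-TE loci were grouped by identical description, and 23.1% of the 10067 loci in groups of at least 10 lay in such runs. The expansin share also stood above that of most single groups. Of the 411 other described groups, 39 had a higher share than the expansins and 78 a higher share than family 16, and the median share was 14.6%. Among groups of like size, 2 of 30 (42 to 94 loci) exceeded the expansins and 26 of 118 (20 to 45 loci) exceeded family 16. When each run was counted as 1 place, the expansins had 39 places, of which 18 (46.2%) were on chromosomes 2, 3 and 10, and family 16 had 22 places. Chromosomes 3 and 10 held 23.1% and 12.8% of the expansin places, above their 11.2% and 5.85% of other non-TE loci. Chromosome 2 held 10.3%, against 10.6% of other non-TE loci. For family 16, chromosomes 4 and 6 held 9.09% of places each, near their 8.74% and 8.27% of other non-TE loci. Family 16 stayed above the other loci on chromosomes 2 and 3 (18.2% of places each) and 8 and 10 (13.6% each).

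**Figure D2:**
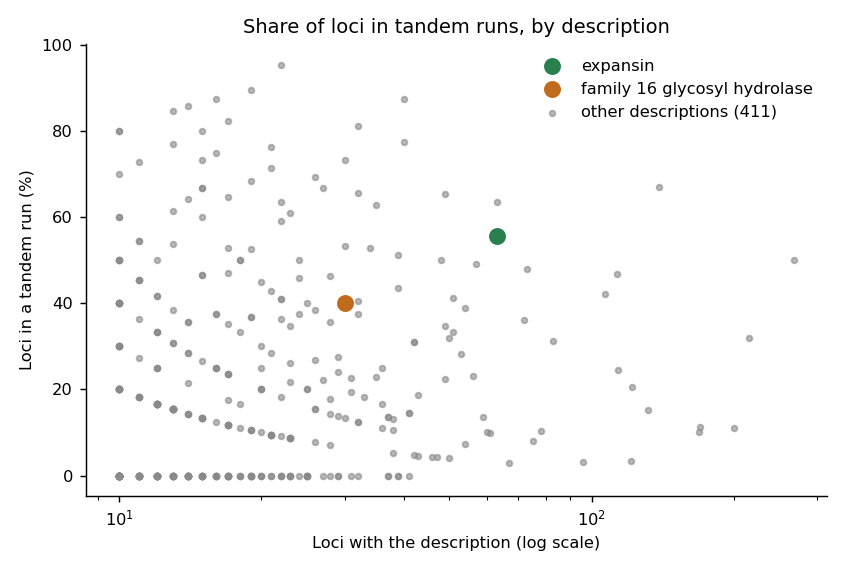
Share of loci in tandem runs (%) against the number of loci with the same description (log scale) for the expansins, family 16 and 411 other described groups of at least 10 loci, each point being 1 group. The expansins (63 loci, 55.6%) lay above all but 2 of the groups of like size, and family 16 (30 loci, 40.0%) lay higher than most of them, with 26 of 118 above it.

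Runs of 3 or more loci held 23 expansins in 5 runs, and the longest held 6 loci. The run with the widest span, 49406 bp on chromosome 2 (9551856 to 9601261), joined LOC_Os02g16730, LOC_Os02g16780, LOC_Os02g16800, LOC_Os02g16839, LOC_Os02g16809 and LOC_Os02g16850. The first 4 of these were on the plus strand and the last 2 on the minus strand, and the loci were 898 to 1630 bp long. Among the 7 other loci inside this run were 1 TE, 2 loci described as glutelin, a seed storage protein, 1 F-box protein and 1 receptor kinase.

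The other run of 6 loci was on chromosome 3 (2998855 to 3037894, 39040 bp) and comprised LOC_Os03g06000, LOC_Os03g06010, LOC_Os03g06020, LOC_Os03g06040, LOC_Os03g06050 and LOC_Os03g06060. Its strands ran plus, minus, minus, plus, plus, plus, and it enclosed only 1 other locus, an expressed protein without a named product. The members were of similar length, 1002 to 1509 bp. Closer to the start of chromosome 3, LOC_Os03g01610, LOC_Os03g01630, LOC_Os03g01640 and LOC_Os03g01650 formed a compact run of 15414 bp (386873 to 402286) with lengths of 804 to 1230 bp. In this run 3 members were on the plus strand and the last on the minus strand.

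On chromosome 10, LOC_Os10g40700, LOC_Os10g40710, LOC_Os10g40720 and LOC_Os10g40730 lay next to each other with 0 other loci between them (21830151 to 21861307, 31157 bp). They were 1544, 1722, 1923 and 2558 bp long, longer than any member of the run at LOC_Os03g06000, and the gaps between them were 4235, 10152 and 9023 bp. The first 3 were on the minus strand and the last was on the plus strand. The fifth run, on chromosome 9 (18058253 to 18084902, 26650 bp), held beta-expansins only, LOC_Os09g29690 (924 bp), LOC_Os09g29710 (1029 bp) and LOC_Os09g29740 (381 bp), all on the plus strand. All 3 loci between its members were marked as TEs, whereas the other 4 runs of 3 or more expansins enclosed 1 TE locus in all.

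The other 6 expansin runs were pairs. LOC_Os10g30330 and LOC_Os10g30340, the closest pair of expansins, were 1299 bp apart and faced each other in a span of 3998 bp. The next closest consecutive members were LOC_Os03g06010 and LOC_Os03g06020, 1754 bp apart, and LOC_Os03g01640 and LOC_Os03g01650, 2616 bp apart. The widest gap between consecutive run members, 23226 bp, was on chromosome 5 between LOC_Os05g19570 and LOC_Os05g19600, a pair with 2 TE loci inside.

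Runs of family 16 glycosyl hydrolases were fewer, and 2 of the 4 held 4 loci each. LOC_Os06g48160, LOC_Os06g48170, LOC_Os06g48180 and LOC_Os06g48200 lay on chromosome 6 (29133001 to 29157883, 24883 bp) with lengths of 1771, 2014, 1675 and 1459 bp. The first 3 were on the plus strand and the last was on the minus strand, with 1 other locus inside. LOC_Os04g51450, LOC_Os04g51460, LOC_Os04g51510 and LOC_Os04g51520 lay on chromosome 4 (30473364 to 30523556, 50193 bp) and were 1797, 1411, 1188 and 3201 bp long. This run was in effect 2 pairs, since 35434 bp separated LOC_Os04g51460 from LOC_Os04g51510, which were 5 loci apart and so at the limit for a link. LOC_Os04g51510 and LOC_Os04g51520 faced each other across 241 bp, the smallest gap between members of either family.

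The other 2 runs were pairs on the plus strand, LOC_Os02g17880 with LOC_Os02g17900 (2909 bp apart) and LOC_Os08g14200 with LOC_Os08g14210 (3938 bp apart). A further pair on chromosome 8, LOC_Os08g13920 and LOC_Os08g13980, was 6 loci and 55170 bp apart and so just missed the limit. Among the expansins no pair came near it, since the closest neighbours outside a run, LOC_Os03g01270 and LOC_Os03g01610, were 32 loci and 195575 bp apart. LOC_Os02g16730 and LOC_Os02g16780, which were 5 loci and 16191 bp apart, were the expansin pair at the limit.

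Consecutive members of a run were often, but not always, on the same strand. This was so for 17 of 24 expansin pairs (70.8%) and 5 of 8 family 16 pairs (62.5%), against 82.8% of 1498 such pairs in runs of other described loci. For any 2 consecutive non-TE loci the share was 52.0%. Of the remaining expansin pairs, 4 faced each other and 3 faced away, and for family 16 these numbers were 2 and 1. The median gap between consecutive run members was 8202.5 bp for expansins (1299 to 23226 bp) and 4787.5 bp for family 16 (241 to 35434 bp). Inside the expansin runs lay 16 other loci, 6 of them TEs, and inside the family 16 runs lay 7, with 2 TEs. Directly adjacent loci made up 15 of the 24 expansin pairs and 4 of the 8 family 16 pairs.

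**Figure D3:**
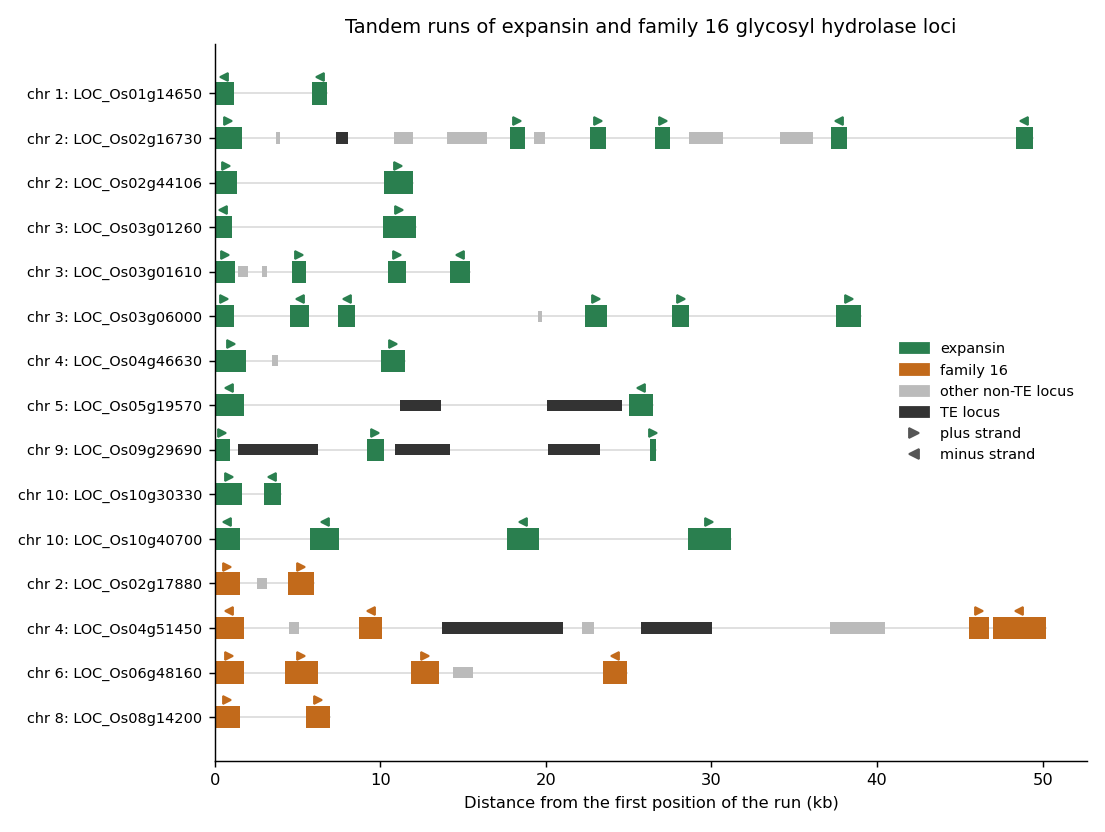
Map of the 11 expansin runs and 4 family 16 runs, each on its own line named by its first locus, with distance from the first position of the run in kb. Boxes are loci to scale, arrowheads give the strand of the members, and grey and black boxes are other non-TE and TE loci inside the run; spans were 3998 to 49406 bp for expansins and 5977 to 50193 bp for family 16.

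No expansin lay within 5 loci of a family 16 glycosyl hydrolase, and no background share was counted for this. The nearest pair across families was LOC_Os03g01800, a family 16 locus, and the expansin LOC_Os03g01650 at the end of its run, 14 loci and 90365 bp apart. The next was LOC_Os10g39840 and the expansin LOC_Os10g39640, 20 loci and 138470 bp apart. Some members were the only one of their family on a chromosome, namely the expansin LOC_Os12g36040 and the family 16 loci LOC_Os09g23220 (1740 bp) and LOC_Os11g33270 (3086 bp). LOC_Os12g36040 (22089434 to 22091866, 2433 bp, plus strand) was also the only member of either family on the chromosome of *ART1* (LOC_Os12g07280, 3580032 to 3582974), and it lay 18.5 Mb and 2615 loci away from it. Its upstream gap of 35224 bp was the largest of all 93 members.

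Both families were made of short loci. The median length was 1365 bp for expansins (quartiles 1041 and 1832 bp, n = 63) and 1784 bp for family 16 (1516 and 2312.5 bp, n = 30), against 2189 bp for other non-TE loci (979.75 and 3957 bp). The 95% intervals of the medians, from binomial order statistics, were 1167 to 1662 bp for expansins and 1553 to 2047 bp for family 16, and they cover the spread among loci only. The lower quartile of each family was above that of the other loci and the upper quartile was far below theirs. Loci over 3000 bp made up 11.1% of expansins (7 loci), 16.7% of family 16 (5 loci) and 37.3% of other non-TE loci. Loci under 1000 bp made up 17.5% of expansins (11 loci), 0 of family 16 and 25.5% of other non-TE loci. The lengths in both families thus lay in a narrower band than those of other loci, and the difference from other loci was larger when these were limited to loci with a product description (median 3042.5 bp) or to loci marked as expressed (2356 bp). Among the 411 described groups, 50 had a shorter median than the expansins and 86 a shorter median than family 16.

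**Figure D4:**
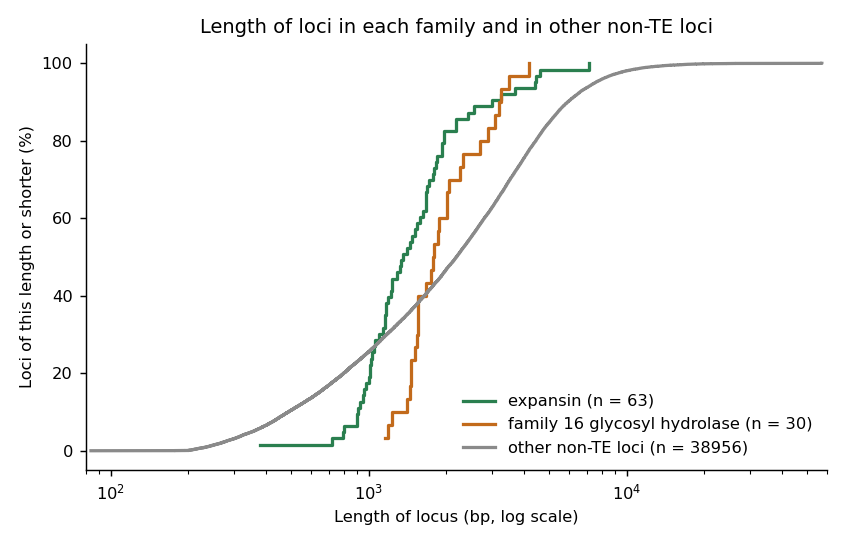
Cumulative share of loci (%) by length (bp, log scale) for expansins (n = 63), family 16 (n = 30) and other non-TE loci (n = 38956). The curves of both families rise steeply around medians of 1365 and 1784 bp, while the curve of the other loci, with a median of 2189 bp, is spread from 84 to 57094 bp.

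Within the expansins, loci in runs were shorter than loci alone. The median was 1163 bp for the 35 loci in runs and 1668.5 bp for the 28 alone, and all 7 expansins over 3000 bp stood alone. For family 16 the medians were 1555.5 bp for the 12 loci in runs and 2030 bp for the 18 alone. Loci described as beta-expansin precursor had a median of 1029 bp (n = 7) and loci described as expansin precursor one of 1443.5 bp (n = 56). The longest expansins were LOC_Os02g42650 (7174 bp), the beta-expansin LOC_Os04g44780 (4611 bp) and LOC_Os06g41700 (4472 bp). The shortest were LOC_Os09g29740 (381 bp) and LOC_Os08g37930 (719 bp), both beta-expansins, and LOC_Os01g16770 (798 bp). Loci with the beta-expansin description thus stood at both ends of the range. In family 16 the longest were LOC_Os10g02770 (4178 bp), LOC_Os03g13570 (3490 bp) and LOC_Os10g42670 (3268 bp), and the shortest were LOC_Os03g02610 (1159 bp), LOC_Os04g51510 (1188 bp) and LOC_Os08g13980 (1230 bp). Exon positions are not part of the list, so these lengths include introns and any untranslated regions it annotates.

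Expansins were on the plus strand in 41 of 63 loci (65.1%, exact Clopper-Pearson 95% interval 52.0 to 76.7%) and family 16 in 17 of 30 (56.7%, 37.4 to 74.5%), against 50.6% of other non-TE loci. These intervals treat loci as independent, which loci of a run may not be, and cover counting error only. The interval of family 16 includes the share of the other loci, and that of the expansins begins above it, but this is not a test. With each run counted once by the strand of most of its loci, the share was 70.3% of 37 places for expansins, 2 pairs with a locus on each strand being left out, and 54.5% of 22 places for family 16.

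Every member of both families was marked as expressed, 63 of 63 expansins and 30 of 30 family 16 loci. The mark was common, since 93.5% of other non-TE loci carried it. Among those with a product description, which all members have, it was carried by 99.1%, and in 372 of the 411 described groups all loci had it. The share of 100% in both families (exact lower bounds 94.3% for expansins and 88.4% for family 16) was therefore near the background. The mark matched the word expressed in the description of every non-TE locus (36520 loci with both and 2529 with neither), so the mark and the word were not separate evidence. The mark belongs to the annotation, and it does not say that a member was expressed in these roots.

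More than 1 gene model was annotated for 4 expansins (6.35%) and 5 family 16 loci (16.7%), against 16% of other non-TE loci. Among those with a product description, which all members have, the share was 22.2%. The exact 95% interval was 1.76 to 15.5% for the expansins, just below the 16%, and 5.64 to 34.7% for family 16, which includes both shares. These intervals treat loci as independent, which loci of a run may not be, and they are not a test. LOC_Os03g44290 was the expansin with the most models, 3, with spans of 3266, 3261 and 3261 bp. LOC_Os03g01270, LOC_Os03g04020 and LOC_Os04g44780 had 2 each. The models of LOC_Os04g44780 differed most, with spans of 4610 and 3296 bp. In family 16, LOC_Os04g53950 had 3 models (1862, 1862 and 1854 bp), and LOC_Os02g46910, LOC_Os06g48180, LOC_Os07g34580 and LOC_Os09g23220 had 2 each. Those of LOC_Os07g34580 spanned 2013 and 851 bp, while in LOC_Os06g48180 and LOC_Os09g23220 both models had the same length.

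Members had more room before their start than other loci. The median gap on the upstream side was 4671 bp for expansins and 3987.5 bp for family 16, against 2965 bp for other non-TE loci. The 2 kb before the start were free of any other locus in 51 of 63 expansins (81.0%) and 26 of 30 family 16 loci (86.7%), and in 64.9% of other non-TE loci. On the downstream side the medians were much closer, 1841 bp for expansins and 2409.5 bp for family 16, against 2130 bp for other non-TE loci. To the nearest locus on either side the median was 1564 bp for expansins, 1960.5 bp for family 16 and 1367 bp for other non-TE loci. The nearest upstream neighbour was on the opposite strand in 42.9% of expansins and 60.0% of family 16 loci, against 49.8% of other non-TE loci.

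An overlap with another locus was found for 2 expansins (3.17%), 0 family 16 loci and 4.08% of other non-TE loci. LOC_Os04g49410 (29485142 to 29489558, plus strand, 4417 bp) covered the whole of the core histone locus LOC_Os04g49420 on the minus strand, and both ended at the same position, an overlap of 1582 bp. LOC_Os07g31390, a beta-expansin of 1450 bp (18598157 to 18599606, plus strand), lay wholly inside LOC_Os07g31400, a TE locus of 5525 bp on the minus strand. Within the overlap, reads can be told apart from the other locus only by strand. The overlap takes up all of LOC_Os07g31390 but only 1582 of the 4417 bp of LOC_Os04g49410. The libraries were strand-specific per the study's methods, but whether the counting used the strand is not given in the sources used here.

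TE loci made up 16.0% of the loci within 5 positions of expansins and 27.3% of those near family 16, against 22.7% near other non-TE loci. The families as a whole thus stood on opposite sides of the background, but for family 16 this came from its loci in runs. The share was 35.8% for its 12 loci in runs, which share neighbours, and 21.7% for the 18 alone. The latter was close to other non-TE loci (22.7%, or 20.0% for those with a product description). For expansins it was 16.9% in runs and 15.0% alone. No TE lay within 5 loci of 18 expansins (28.6%) and 3 family 16 loci (10.0%), against 22.3% of other non-TE loci. LOC_Os05g19570 and LOC_Os05g19600, with 8 and 7 TE loci among their 10 nearest, were the expansins with the most. The outer 20% at either end of a chromosome was taken in the order of all its loci, not in bp. There lay 33 expansins (52.4%) and 17 family 16 loci (56.7%), against 45.4% of other non-TE loci. For other non-TE loci with a product description the share was 49.2%.

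**Figure D5:**
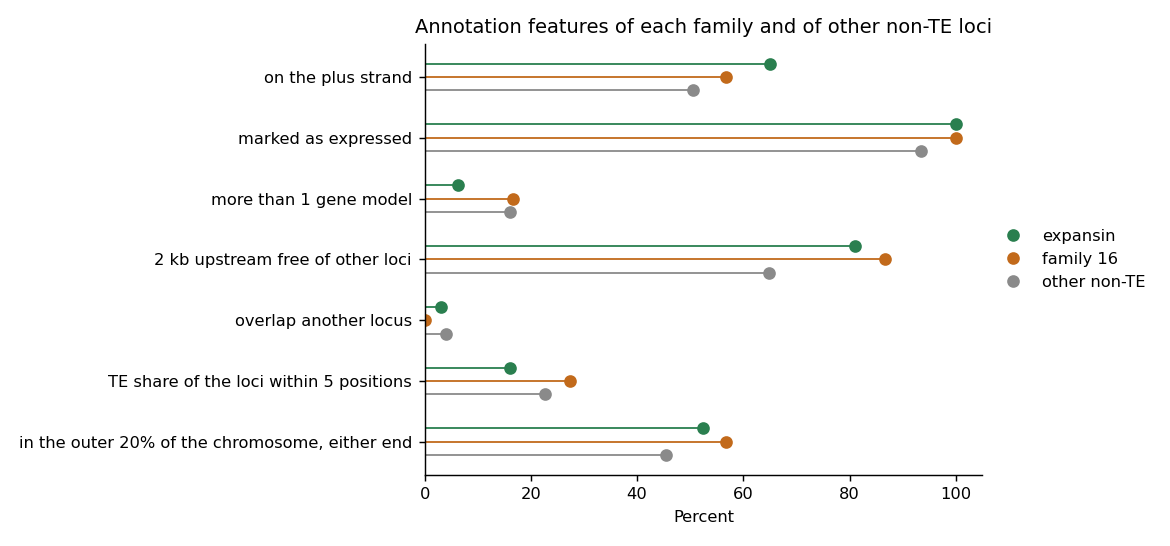
Percentage of expansins (n = 63), family 16 loci (n = 30) and other non-TE loci (n = 38956) with each feature of the annotation. The families lay above the other loci for a free 2 kb upstream (81.0% and 86.7%, against 64.9%) and on opposite sides of them for TE loci nearby (16.0% and 27.3%, against 22.7%). For TE loci nearby, family 16 had 35.8% for its loci in runs and 21.7% for those alone.

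Other cell wall families were taken from the descriptions in the same way, without the 93 members, and linked into runs within each list. The share in runs was lower than that of the expansins for cellulose synthases and their relatives, which make the main wall polymers (21.3% of 47 loci), for pectinesterases (14.8% of 54) and polygalacturonases (30.9% of 55), which act on pectin, and for arabinogalactan proteins (11.1% of 18). Since lists were taken by word, the pectinesterases include 12 loci described as inhibitors and the polygalacturonases 11, and 12 of the arabinogalactan proteins are also among the fasciclin-domain proteins. Pectate lyases (41.7% of 12), COBRA proteins (36.4% of 11), fasciclin-domain proteins (34.5% of 29), laccases (45.8% of 24) and other glycosyl hydrolases (46.2% of 119) were nearer to family 16. Higher shares were found for pollen allergens (88.2% of 34), loci with xyloglucan in their description, mostly fucosyltransferases that decorate the polymer (78.3% of 23), the extensin list, whose 52 loci were all described as Pollen Ole e I allergen and extensin family proteins (71.2%), and the peroxidase precursors, enzymes that oxidize wall phenolics among other substrates (67.1% of 140). Whether any locus of the pollen allergen list encodes an expansin-related protein was not tested. The expansins were thus in the upper part, but not at the top, of the range of wall families. Their median of 1365 bp was shorter than that of 10 of the 13 lists, the exceptions being pollen allergens (721 bp), the extensin list (1129 bp) and fasciclin-domain proteins (1252 bp). All loci were marked as expressed in 11 of the 13 lists, and in the pollen allergens and laccases the share was 94.1% and 95.8%.

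The wall loci that neighboured a member are named here. No background share was counted for this, so their number is a description only. Within 5 loci of an expansin lay LOC_Os10g39160, a peroxidase precursor, and LOC_Os02g51060 and LOC_Os03g26044, described as the mannan synthases CSLA6 and CSLA5. Within 5 loci of a family 16 glycosyl hydrolase lay LOC_Os10g39890, described as a pollen Ole e I allergen and extensin family protein. The xyloglucan list had 0 of its 23 loci within 5 of a member of either family.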

How the data were processed

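Total RNA from roots of the 8 groups (4 replicates each) had been sequenced as strand-specific libraries. The authors trimmed the reads with Trimmomatic, removed ribosomal RNA reads with Bowtie, aligned the rest to MSUv.7 with HISAT, and used DESeq2 on counts per gene. The processed file analysed here is the annotation that the authors deposited, whose numeric values are first and last positions of gene models in bp (another unit than expression). It has 0 columns of a single library, so depth per library was not analysed here, expression was not compared and no test was run. How its TE and expressed marks were set is not given in the sources used here.

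All gene models of a locus together set its outer ends, and it took its TE mark and description from the representative model, and was expressed when any model carried that mark. Loci were ordered by start on each chromosome. Descriptions that carry a number or name of their own were not grouped with others in the described groups. The run finder was tested on simulated data. Named loci were all members of runs of 3 or more, the 3 longest, shortest and closest of each family, those with most gene models, those that overlap another locus, those alone on their chromosome and any on chromosome 12; others named were chosen after their values were seen, as were 2 alternatives that count each run once for length. The members and lists were chosen with earlier results of these data known. The RefSeq rice table is of another assembly and matched 0 of the 93 loci, and no sequence was used. Computation was in Python 3.11.15 (pandas 2.3.3, numpy 2.4.6, scipy 1.17.1), and plots were drawn with matplotlib 3.10.9.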

Additional observations from a re-analysis of the deposited data

How the results depend on the processing

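Of 32 alternative values for 14 results, 31 stayed within 1.5 times the count or inside the 95% interval of the value reported. Some of these could not differ, so this count overstates how far the results were tried. Every member was marked as expressed, so limiting to such members changed nothing, and the mark always matched the word in the description. The exception was the number of family 16 loci in runs, which was 7 when only adjacent loci were linked, against 12, since fewer loci can then be linked. Under the other rules for a run it was 9 to 14. The number of expansins in runs was 25 with adjacent loci only and 29 to 35 under the other rules, against 35. The numbers of loci stayed at 63 expansins and 30 family 16 loci. With each run counted once, median lengths were 1586 bp for expansins and 1866.5 bp for family 16. With TE loci left out as neighbours, the median nearest gaps were 1841 bp for expansins and 2409.5 bp for family 16. No paired analysis was possible because no value belongs to a single library. The number of loci limits the precision of every share.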

Other observations

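Most expansins of chromosomes 3 and 10 lay in a short stretch. The first 3.04 Mb of chromosome 3 held 13 of its 18 expansins (72.2%) and 2 family 16 loci, against 408 of its 4364 other non-TE loci (9.35%). On chromosome 10, the 1.02 Mb from LOC_Os10g39110 to LOC_Os10g40730 (20846283 to 21861307) held 7 of its 9 expansins (77.8%) and 1 family 16 locus, against 131 of its 2280 other non-TE loci (5.75%). Both stretches were marked off after the positions had been seen, with a member at their edges, so the counts are a description only.

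In the middle of the chromosome 2 run, 2 expansins and 2 glutelin loci were arranged as mirror images. LOC_Os02g16839, an expansin of 912 bp, was followed on the plus strand by the glutelin LOC_Os02g16820 (2045 bp) after 1111 bp. After a gap of 3481 bp came the glutelin LOC_Os02g16830 (2010 bp) on the minus strand, and 1049 bp further the expansin LOC_Os02g16809 (975 bp), also on the minus strand. Each side thus held an expansin and a glutelin of nearly the same length and spacing, facing the centre. LOC_Os02g16809 was also the only expansin whose locus number was lower than that of the member before it, and no family 16 locus was out of order in this way.

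The beta-expansins of chromosome 9 had like gaps on each side although TE loci lay between them. The gaps on the upstream side were 2965 bp for LOC_Os09g29690, 2915 bp for LOC_Os09g29710 and 3003 bp for LOC_Os09g29740, and those on the downstream side were 467, 657 and 621 bp. The loci themselves were 924, 1029 and 381 bp long, so that LOC_Os09g29740 was the shortest by far. These patterns on chromosomes 2 and 9 were noticed in the data, and no sequence was compared.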
